A study of Homo sapiens with 16 samples.

Results

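The genes described here are 39 nuclear genes whose proteins act on RNA inside mitochondria, together with the mitochondrial DNA replication proteins that share their template. They were chosen by symbol from a list of factors for mitochondrial transcription, RNA granules, transcript cleavage, modification, polyadenylation and decay, by a rule that uses no expression value. Earlier results of these data were known when the genes were chosen. All 39 were found among the 33121 entries of the count table, and 38 of them passed the filter on low counts, as did 15569 entries in all. PTCD1, the exception, had 0 to 6 counts per library, too few for a test, and 49.1% of its exon bases lie in other annotated genes, among them a readthrough transcript that joins it to a neighbour. The FASTK family of mitochondrial RNA-binding proteins was left out of the list.

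Poly-A selected RNA was sequenced from 16 libraries of cultured HAP1 cells, a human line with a nearly haploid genome, grown in IMDM with fetal bovine serum. The SLC30A10 knockout, 4 libraries, is named here after its label, which gives a HAP1 line with a deletion of SLC30A10, the gene of a manganese exporter, and it was compared with a control set of 4 libraries. The second knockout, 4 libraries, was a HAP1 line with a deletion in another gene, and it had a control set of 4 libraries of its own, called here the second control set. A knockout and its own control set are together called an experiment here. That grouping was made from the genotype in the labels and does not stand for a recorded batch. Both control sets carried the same cell line identifier and no deletion in the labels, while each knockout carried a single identifier of its own. The study's title links the granules in which mitochondrial RNA is processed to the toxicity of metals. The labels name no second line of either knockout and do not say whether the libraries of a group came from separate cultures, so the p-values measure only the spread between these libraries, which may be technical.

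Mitochondrial DNA is transcribed from both strands into long precursors by a single-subunit RNA polymerase, and the tRNAs lying between the mRNAs and rRNAs are cut out to release the mature transcripts. Cleavage, base modification, polyadenylation and the first steps of ribosome assembly take place in RNA granules beside the mitochondrial nucleoids, and a helicase and exonuclease complex degrades surplus and antisense RNA. All of these proteins are encoded in the nucleus, and binding sites for the factor NRF1 and for ETS proteins such as GABPA are known from the promoters of many genes of this kind.

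Promoter sequence was on hand from RefSeq (assembly GRCh38.p14) for 36 of the 39 genes, and the 250 bases before the annotated start were searched on both strands. MTO1, PUS1 and C10orf2 had no entry. An NRF1 motif, the letters GCGCA followed by any base and GCGC, was found in 5 of the 36 (13.9%), namely NOA1, POLG2, POLRMT, TFAM and TFB1M, beside 5.53% of 27305 promoters of that length and 10.2% of the 11117 that belong to tested genes. An ETS motif, the letters CCGGAAGT, was found in 7 (19.4%), namely DHX30, ELAC2, NGRN, PDE12, POLRMT, TRMT10C and TRMU, beside 3.64% of all promoters and 6.82% of those of tested genes. No match of one motif overlapped a match of the other. Sequences of 4 genes are printed 5′ to 3′ on the strand of the gene, since they hold matches of both kinds and the levels of these genes are compared between groups below. Capitals mark the NRF1 letters in TFAM, the ETS letters in TRMT10C and PDE12, and both in POLRMT, where the first run in capitals is the ETS match and the second holds a pair of overlapping NRF1 matches.
TFAM, chr10:58385160-58385409, plus strand: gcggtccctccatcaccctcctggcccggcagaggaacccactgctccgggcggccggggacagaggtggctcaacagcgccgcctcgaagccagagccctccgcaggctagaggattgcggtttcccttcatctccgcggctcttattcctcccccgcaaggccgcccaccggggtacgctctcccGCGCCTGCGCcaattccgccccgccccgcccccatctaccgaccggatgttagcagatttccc
POLRMT, chr19:633538-633787, minus strand: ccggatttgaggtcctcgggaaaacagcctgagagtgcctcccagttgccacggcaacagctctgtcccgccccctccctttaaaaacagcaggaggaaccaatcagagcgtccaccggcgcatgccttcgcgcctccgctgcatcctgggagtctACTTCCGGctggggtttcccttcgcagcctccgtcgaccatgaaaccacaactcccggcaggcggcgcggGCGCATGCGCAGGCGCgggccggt
TRMT10C, chr3:101561618-101561867, plus strand: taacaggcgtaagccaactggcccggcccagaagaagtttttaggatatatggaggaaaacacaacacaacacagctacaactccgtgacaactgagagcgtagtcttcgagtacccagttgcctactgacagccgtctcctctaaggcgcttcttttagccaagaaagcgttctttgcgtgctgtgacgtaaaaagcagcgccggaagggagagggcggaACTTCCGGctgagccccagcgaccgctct
PDE12, chr3:57556024-57556273, plus strand: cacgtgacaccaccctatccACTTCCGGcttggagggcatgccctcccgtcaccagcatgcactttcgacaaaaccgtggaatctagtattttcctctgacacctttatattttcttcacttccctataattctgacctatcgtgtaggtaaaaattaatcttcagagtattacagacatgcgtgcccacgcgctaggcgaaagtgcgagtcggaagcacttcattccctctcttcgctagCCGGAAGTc
The ETS match of TRMT10C began 29 bases before the annotated start, and the NRF1 match of TFAM began 63 bases before it. A match describes letters in this window and was not tested as a binding site.

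Library totals were even, at 16058856 to 16648151 counts. SLC30A10 itself had 3 to 11 counts in its knockout and 6 to 9 in the control, at 0.418 ± 0.217 against 0.472 ± 0.0774 CPM (SD, n = 4; log2 ratio -0.18, exact permutation test, two-sided p = 0.686, with 0.0286 the smallest it can give), so its RNA gives no check of the deletion. FASTKD2, a granule protein of the FASTK family, was at 0.0621 to 0.249 CPM in the 4 libraries labelled SLC30A10 knockout and at 55.9 to 62.4 CPM in their controls, which is 1 to 4 counts per library against 917 to 1024, and it was at 31.3 to 38.8 against 52.6 to 55.9 CPM in the second experiment. The data therefore do not settle what the line labelled SLC30A10 knockout carries, and every direction given for it rests on that label. A pair of libraries stood above their groups in the genes described here. Library 3 of the SLC30A10 control held the highest level of its group in 25 of the 38 genes (65.8%, against 33.9% of all tested genes), and library 1 of the second knockout in 21 (55.3%, against 29.4%). Blood cell markers were near 0 (PTPRC at most 2 counts and CD34 at most 9 in any library) apart from KIT, at 5.91 to 16.3 CPM. Of the fibroblast collagens, COL1A2 and COL3A1 were near 0 and COL1A1 was at 29.5 to 42.4 CPM. Summed levels of the 5 fibroblast markers, mostly VIM (353 to 660.05 CPM over the 16 libraries), were 385 to 398 CPM in the SLC30A10 knockout and 638 to 694 CPM in its control. Those of the 5 epithelial markers, mostly KRT18 (33.5 to 53.6 CPM over the 16 libraries), were 56.7 to 64.1 and 47.8 to 55.5 CPM. The sums of the 5 blood markers were 13.5 to 16.4 and 6.22 to 11.03 CPM. In the second knockout and its control the fibroblast sums were 535 to 691 and 445 to 588 CPM, the epithelial sums 37.04 to 40.4 and 46.6 to 51.5 CPM, and the blood sums 7.51 to 9.10 and 11.6 to 13.8 CPM. Log2 changes of the 3 tested epithelial markers ran from -2.18 to 0.36 in the SLC30A10 knockout and from -1.35 to 0.41 in the second. The epithelial sums therefore hide changes in opposite directions. Log2 changes of the 2 tested fibroblast markers ran from -0.82 to -0.14 in the SLC30A10 knockout and from -0.20 to 0.26 in the second. In the second knockout the fibroblast sums thus also hide opposite directions. The part of FASTKD2 and of these markers in the results below was not tested.

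Levels are in CPM, the count of a gene for every 1000000 counts of its library after scaling. Per kilobase of GENCODE exon sequence and averaged over the 4 groups, the most abundant of the 38 genes was HSD17B10, at 83.9 CPM per kilobase. LRPPRC followed at 62.5, SLIRP at 50.4, ELAC2 at 50.1 and ERAL1 at 42.6 CPM per kilobase. The least abundant on that scale were PTCD2 at 2.87, MTO1 at 3.71, DDX28 at 5.32 and PDE12 at 5.89 CPM per kilobase. MRM1 and SSBP1 each have a second entry in the count table that is left out here, so their places in this order are uncertain. Both ends of this order hold genes for enzymes and for RNA-binding proteins. The RNAs of LRPPRC and SLIRP, whose proteins bind mitochondrial mRNAs as a complex, lay next to each other in it. Annotated overlaps with other genes, on either strand, cover 26.8% of the exon bases of SLIRP, 23.8% of NGRN, 20.1% of TEFM and 18.3% of DDX28, and MTPAP overlaps an antisense gene, so reads of these genes may be shared.

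**Figure D1:**
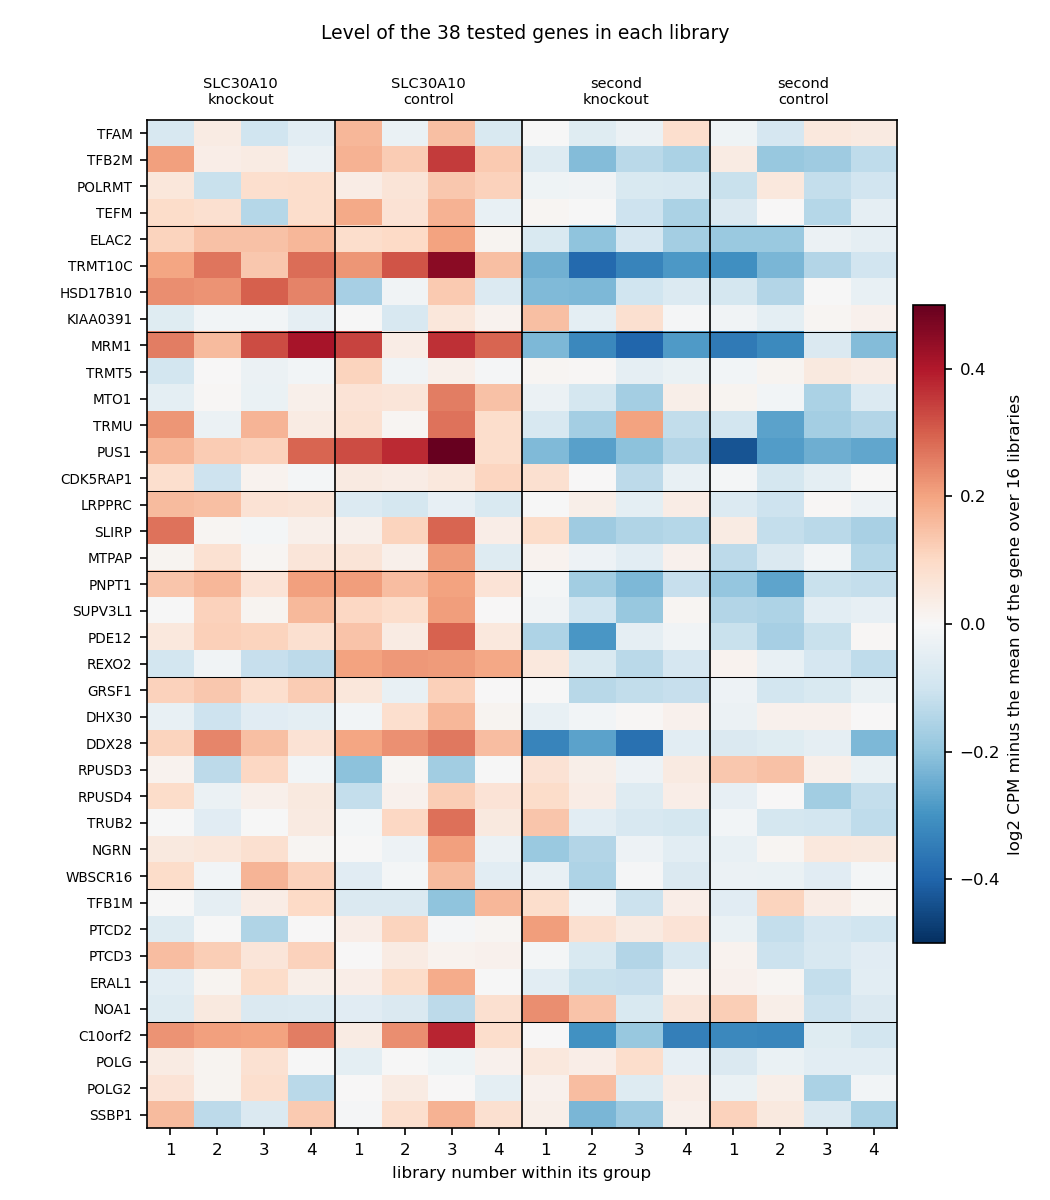
Level of each of the 38 tested genes (vertical axis, grouped by role) in each of the 16 libraries (horizontal axis, library number within its group), as log2 CPM minus the mean of the gene over 16 libraries, with red above and blue below that mean and the scale ending at 0.5 in either direction. MRM1, TRMT10C, PUS1 and C10orf2 were above their means in all 8 libraries of the SLC30A10 experiment and library 3 of the SLC30A10 control held the highest level of its group in 25 of the 38 genes.

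In the SLC30A10 knockout, 7 of the 38 genes passed the test against the control set (18.4%, where 41.4% of all tested genes passed), and their changes were small. LRPPRC, HSD17B10 and PTCD3 rose, which is 7.89% of the 38 beside 21.2% of all genes. REXO2, DHX30, MTO1 and PUS1 fell, which is 10.5% beside 20.2%. Fold changes over the 38 genes ran from 0.815 to 1.21, and none of them reached 1.5-fold in either direction, while 10.4% of all tested genes passed the test and reached it. The median log2 change was -0.03 over the 38 genes and -0.0048 over all tested genes, and the median absolute change was 0.06 against 0.16. Groups did not overlap for 6 of the 38, beside 38.3% of all tested genes. Of these 6, 3 were higher (7.89% of the 38, beside 19.7% of all genes) and 3 were lower (7.89% beside 18.6%). In RNA from a whole culture, fewer cells with a transcript and less of it per cell cannot be told apart.

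Of the 4 genes for the transcription machinery none passed. TFAM, which packages mitochondrial DNA and activates its promoters, was at 167 ± 7.42 CPM in the knockout and 179 ± 15.4 CPM in the control (SD, n = 4; log2 -0.10 ± 0.05, SE). POLRMT, the mitochondrial RNA polymerase, was at 81.4 ± 5.21 and 84.7 ± 2.64 CPM. TFB2M, its initiation factor, and TEFM, its elongation factor, had log2 changes of -0.13 ± 0.07 and -0.07 ± 0.07. All 4 values were below 0 and within the range from -0.13 to 0.09 of the 31 genes that did not pass, and TFB2M had the lowest value among them.

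Among the genes for the enzymes that cut the precursors and for their subunits, HSD17B10 rose. It encodes a dehydrogenase that is also a subunit of mitochondrial RNase P, the complex that cleaves tRNAs at their 5′ end. Its levels were 93.8, 93.5, 98.3 and 95.1 CPM in knockout libraries 1 to 4 and 71.3, 79.0, 87.6 and 76.3 CPM in control libraries 1 to 4. The lowest knockout library lay above the highest control library, which was library 3. The log2 change was 0.28 ± 0.05 (SE; edgeR adjusted p = 1.25e-04). The gene lies on the X chromosome (chrX:53431258-53434376, GRCh38.p14), and up to 10 tested genes on each side of it had a median log2 change of 0.33, with 12 of these 20 neighbours at least as far in the same direction. The median over 496 tested genes of the X chromosome was 0.36 in this comparison. The part of this chromosome-wide shift in the rise of HSD17B10 was not tested.

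The partners of HSD17B10 did not pass. TRMT10C, the methyltransferase subunit of RNase P, was at 57.9 ± 2.70 CPM in the knockout and 60.7 ± 5.57 CPM in the control (log2 -0.07 ± 0.06). KIAA0391, now PRORP, encodes the nuclease subunit and had a log2 change of -0.03 ± 0.05. ELAC2, the enzyme that cuts tRNAs at the 3′ end, had a log2 change of 0.04 ± 0.04. Of the exon bases of KIAA0391, 44.3% lie in another annotated gene on the same strand, so its counts are uncertain. The 3 subunits of RNase P therefore had 1 rise and 2 values that did not pass.

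LRPPRC, which keeps mitochondrial mRNAs stable and ready for polyadenylation, rose in the knockout. It was at 463, 460.4, 437 and 434 CPM in the knockout libraries and at 396, 391, 404 and 394 CPM in the control libraries. Every knockout library was above every control library, and the log2 change was 0.18 ± 0.04 (edgeR adjusted p = 1.86e-04). The 20 tested neighbours of LRPPRC (chr2:43886224-43996265) had a median log2 change of -0.12, and 3 of them had a change at least as high. Its partner SLIRP was at 77.8 ± 7.49 and 80.0 ± 7.04 CPM and did not pass (log2 -0.04 ± 0.07). MTPAP, the mitochondrial poly-A polymerase, did not pass (log2 -0.02 ± 0.05).

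Of the 4 decay genes, REXO2 fell and the others did not pass. REXO2 encodes an oligoribonuclease that removes the short fragments left by RNA degradation. It was at 37.1, 39.0, 36.5 and 36.1 CPM in the knockout libraries and at 45.4, 46.0, 45.9 and 45.2 CPM in the control libraries. The control libraries lay close together and all above the knockout libraries, and REXO2 fell by 0.30 ± 0.05 on the log2 scale (SE; edgeR adjusted p = 4.09e-05). Its 20 neighbours had a median log2 change of -0.02, and 12.0% of its exon bases lie in another gene on the same strand. PNPT1, the exonuclease of the degradosome, was at 130.3 ± 5.19 and 132 ± 5.79 CPM (log2 -0.01 ± 0.05). SUPV3L1, its helicase, and PDE12, which removes poly-A tails, had log2 changes of -0.03 ± 0.05 and -0.05 ± 0.06.

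Of 8 RNA granule genes, DHX30 passed. It encodes an RNA helicase needed for mitochondrial ribosome assembly and was at 168, 160.4, 166 and 166 CPM in the knockout libraries and 171, 182, 193 and 174 CPM in the control libraries. The groups did not overlap, with the highest control value in library 3. DHX30 fell by 0.12 ± 0.04 on the log2 scale (edgeR adjusted p = 0.0111). Its 20 neighbours had a median of -0.09, with 7 of them at least as far in the same direction. GRSF1, the RNA-binding protein by which granules are commonly identified, was at 231 ± 3.47 and 219 ± 10.3 CPM (log2 0.08 ± 0.04) and did not pass. The pseudouridine synthases and their partners in the granule had log2 changes of 0.09 for RPUSD3, 0.01 for RPUSD4, -0.11 for TRUB2, 0.01 for NGRN and 0.08 for WBSCR16, now RCC1L, and none passed. DDX28, a helicase of the granule, had a log2 change of -0.07 ± 0.08 and did not pass either.

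Among 6 genes for tRNA and rRNA modification, MTO1 and PUS1 fell. MTO1, which modifies the wobble uridine of mitochondrial tRNAs, was at 39.6, 41.1, 40.0 and 41.7 CPM in the knockout libraries and 42.9, 42.7, 48.8 and 45.3 CPM in the control libraries. The groups did not overlap, with 39.6 to 41.7 against 42.7 to 48.8 CPM, and MTO1 fell by 0.15 ± 0.06 on the log2 scale (edgeR adjusted p = 0.0381). PUS1, a tRNA pseudouridine synthase, was at 52.5, 51.1, 50.7 and 57.3 CPM in the knockout and 58.7, 60.6, 69.2 and 49.7 CPM in the control libraries. Here the groups overlapped, because control library 4 lay below every knockout library, and PUS1 fell by 0.17 ± 0.07 on the log2 scale with an edgeR adjusted p of 0.0494. MRM1, an rRNA methyltransferase, TRMT5, a tRNA methyltransferase, TRMU, which thiolates tRNAs, and CDK5RAP1, which methylthiolates them, had log2 changes of 0.03, -0.06, -0.01 and -0.06 and did not pass.

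PTCD3, a pentatricopeptide protein of the small mitochondrial ribosomal subunit, was at 235, 229.8, 220.0 and 228 CPM in the knockout libraries and 211, 217, 213 and 214 CPM in the control libraries. The groups did not overlap, and its rise of 0.09 ± 0.04 on the log2 scale was close to the threshold (edgeR adjusted p = 0.0455). PTCD2 (-0.09 ± 0.06), the rRNA methyltransferase TFB1M (0.06 ± 0.07), the rRNA chaperone ERAL1 (-0.06 ± 0.05) and the GTPase NOA1 (0.01 ± 0.06) did not pass, in log2 change. Of the 4 genes for mitochondrial DNA replication none passed. C10orf2, now TWNK, encodes the helicase, and it had a log2 change of 0.03 ± 0.07. The polymerase genes POLG and POLG2 had 0.05 ± 0.04 and 0.01 ± 0.07, and SSBP1, the single-strand binding protein, had -0.06 ± 0.08. With their second entries in the count table added, SSBP1 had -0.03 ± 0.04 and MRM1 0.09 ± 0.07, and neither passed.

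Without library 3 of the SLC30A10 control, DHX30 (edgeR adjusted p = 0.0555), MTO1 (0.146), PUS1 (0.271) and PTCD3 (0.0607) no longer passed and GRSF1 and WBSCR16 did, which left 4 higher and 1 lower, and without library 2 of the knockout 4 genes passed. The losses were not limited to that control library. Over the 8 fits that each left out 1 library, PTCD3 lost its call in 7, PUS1 in 6, MTO1 in 5 and DHX30 in 1, while LRPPRC, HSD17B10 and REXO2 passed in all 8. Shares of all tested genes in these fits are not given here, so their counts cannot be set against all genes. Against both control sets pooled, 12 of 38 genes passed, beside 42.8% of all tested genes. Of these 12, 10 were higher, beside 21.9% of all tested genes, and 2 were lower, beside 21%. MTO1 was not among them, and PUS1 changed direction to a log2 change of 0.15 (edgeR adjusted p = 0.0424). The difference between the control sets, given below, enters the pooled comparison, so these counts do not measure the knockout alone.

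**Figure D2:**
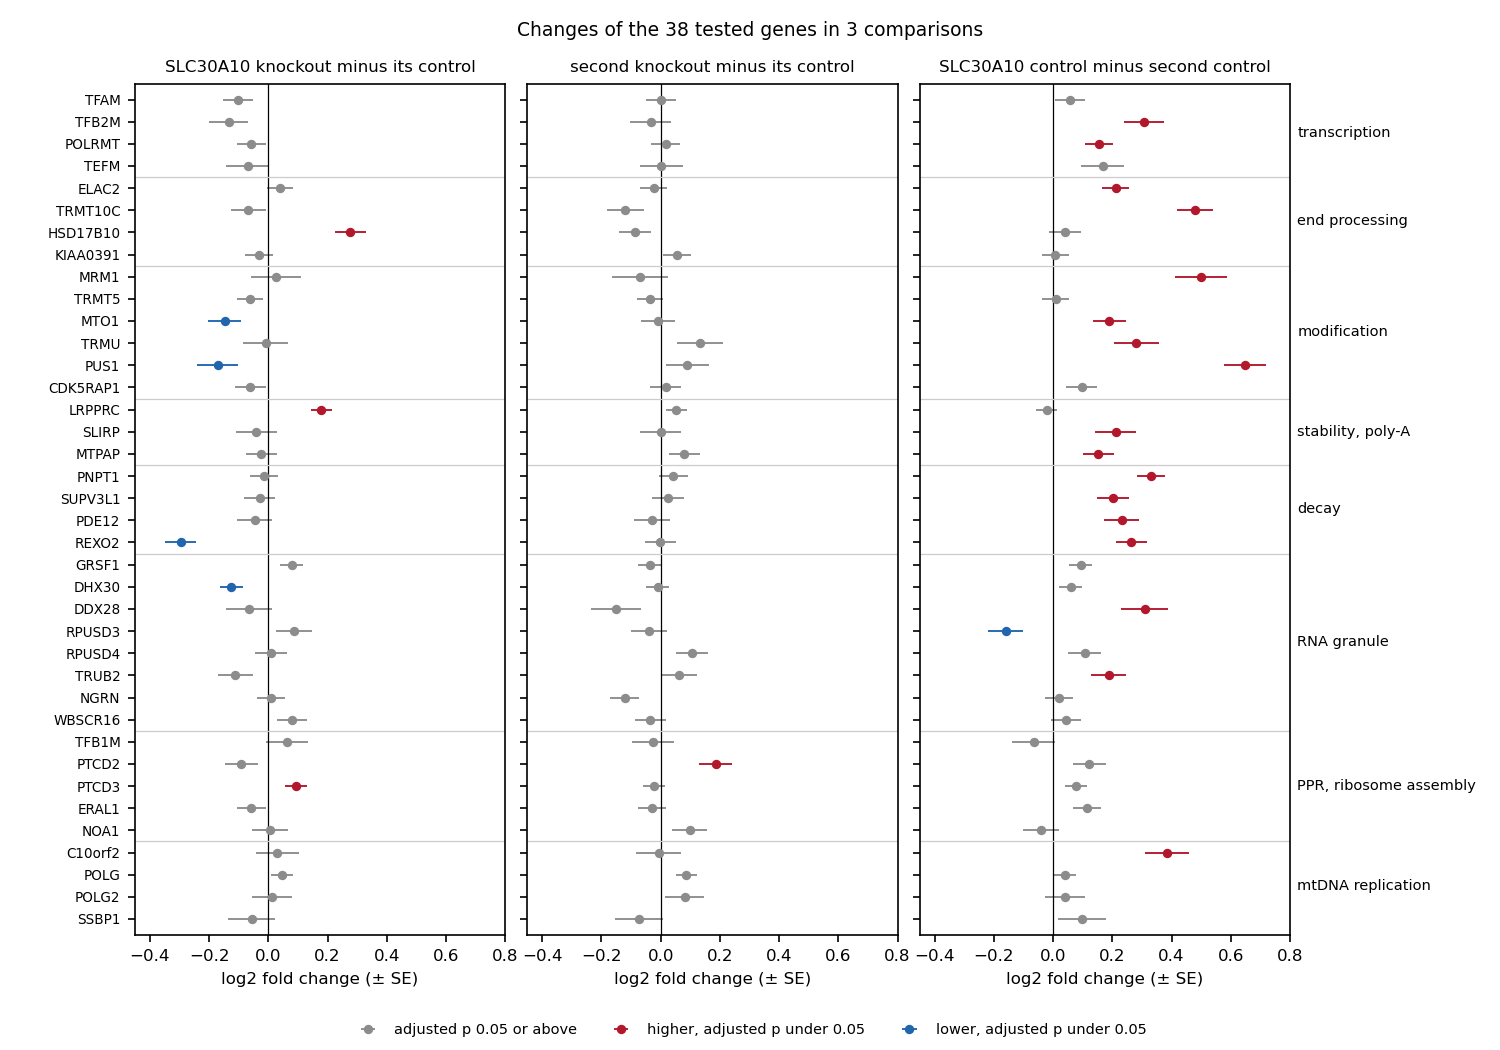
Log2 fold change ± SE (horizontal axes) of the 38 tested genes (vertical axis, grouped by role) in the SLC30A10 knockout against its control, the second knockout against its control and the SLC30A10 control against the second control set, with red and blue for genes past an adjusted p of 0.05. The counts of coloured points are 7, 1 and 18, and 17 of the 18 in the right panel are higher in the SLC30A10 control.

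In the second knockout, PTCD2 was the 1 gene of 38 that passed against the second control set (2.63%, where 13.7% of all tested genes passed, 6.67% higher and 7.03% lower). PTCD2 encodes a pentatricopeptide protein linked to the processing of a mitochondrial mRNA. It was at 37.0, 33.8, 33.0 and 33.5 CPM in the knockout libraries and 31.3, 29.5, 30.2 and 29.8 CPM in the control libraries. Every knockout library was above every control library, with library 1 of the knockout the highest. PTCD2 rose by 0.19 ± 0.06 on the log2 scale (edgeR adjusted p = 0.0236), and its 20 neighbours (chr5:72320373-72368395 for the gene itself) had a median near 0. PTCD2 was also the 1 gene of 38 with groups that did not overlap, beside 16.3% of all tested genes, 7.6% higher and 8.69% lower. It did not pass without library 1 of the knockout (adjusted p = 0.0762), library 2 of the control (0.0609) or library 4 of the control (0.0592), nor with no filter on low counts (0.0612).

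The remaining 37 genes had log2 changes from -0.15 to 0.13 in this comparison, and fold changes over all 38 ran from 0.900 to 1.14, so that none reached 1.5-fold, while 4.27% of all tested genes passed and reached it. The lowest was that of DDX28, at 9.62 ± 0.974 against 10.7 ± 0.607 CPM (log2 -0.15 ± 0.08), and the highest below the threshold was that of TRMU, at 31.0 ± 3.76 against 28.3 ± 1.43 CPM (log2 0.13 ± 0.08). The decay genes had log2 changes of 0.04 for PNPT1, 0.03 for SUPV3L1, -0.03 for PDE12 and -0.002 for REXO2. The 4 transcription genes ranged from -0.03 for TFB2M to 0.02 for POLRMT. MRM1 had a log2 change of -0.07 ± 0.09, which turned to 0.09 ± 0.08 with its second entry added, and passed in neither form. NGRN, a granule protein, had a log2 change of -0.12 ± 0.05 (edgeR adjusted p = 0.0959). At an unadjusted p under 0.05, 3 of the 38 genes passed, beside 25.9% of all tested genes. The median absolute log2 change of the 38 was 0.04, against 0.09 over all tested genes. Against both control sets pooled, 12 genes passed, beside 34.3% of all tested genes. Of these 12, 1 was higher, beside 17.5% of all tested genes, and 11 were lower, beside 16.8%. Here too the difference between the control sets enters the comparison, so these counts do not measure the knockout alone.

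No gene of the 38 passed in both knockouts, beside 7.82% of all tested genes, and 30 passed in neither, beside 52.7% of all tested genes. The difference between the knockout effects was tested directly, as the SLC30A10 effect minus that of the second knockout. It passed for 4 of the 38 genes (10.5%, where 31.3% of all tested genes passed). HSD17B10 had a larger change in the SLC30A10 knockout, by 0.36 ± 0.08 on the log2 scale (edgeR adjusted p = 4.79e-04), with levels of 71.9 ± 4.04 in the second knockout and 76.4 ± 3.30 CPM in the second control set. The median of this difference over the 496 tested genes of the X chromosome was 0.37, as far as that of HSD17B10, and over its 20 neighbours it was 0.28, with 7 of them at least as far. The difference was -0.29 ± 0.07 for REXO2 (adjusted p = 0.00280), -0.28 ± 0.08 for PTCD2 (0.00798) and -0.26 ± 0.10 for PUS1 (0.04995). REXO2 was at 37.9 ± 2.11 and 37.97 ± 1.62 CPM in the second knockout and its control. PTCD2 had opposite signs in the knockouts, -0.09 in the SLC30A10 knockout, where it did not pass, and 0.19 in the second knockout. LRPPRC (0.13 ± 0.05, adjusted p = 0.0532), DHX30 (-0.11 ± 0.05, 0.113), MTO1 (-0.14 ± 0.08, 0.199) and PTCD3 (0.12 ± 0.05, 0.101) did not pass, so a difference between the knockouts was not shown for them. Leaving out 1 library at a time gave 3 to 6 genes, with HSD17B10, REXO2 and PTCD2 among them each time, and PUS1 failed in 12 of 16 such fits. The shares of all tested genes that passed in those fits are not given here.

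More of these genes passed the test between the control sets than in either knockout. Of the 38 genes, 17 were higher in the SLC30A10 control than in the second control set (44.7%, where 18.5% of all tested genes were) and 1 was lower (2.63% beside 20.8%), so that 47.4% passed beside 39.3% of all tested genes. The median log2 difference was 0.12 over the 38 genes and -0.0061 over all tested genes. Groups did not overlap for 16 genes, all of them higher in the SLC30A10 control (42.1% of the 38, beside 17.4% of all tested genes that did not overlap and were higher), while none was lower without overlap, beside 18.9%. All but 1 of the differences were under 1.5-fold. Both sets were HAP1 with the same identifier, and differences of culture, passage, extraction or sequencing between them cannot be told apart.

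The modification genes held the widest differences. PUS1 was at 58.7, 60.6, 69.2 and 49.7 CPM in the SLC30A10 control libraries, at 34.7, 38.6, 39.5 and 39.1 CPM in the second control set and at 40.1, 38.7, 40.6 and 42.3 CPM in the second knockout. With the SLC30A10 knockout at 50.7 to 57.3 CPM, all 8 libraries of the SLC30A10 experiment lay above all 8 of the second. The log2 difference between the controls was 0.65 ± 0.07 (edgeR adjusted p = 1.59e-07), the 1 difference of the 38 that reached 1.5-fold, where 5.64% of all tested genes passed and reached it. MRM1 was at 14.7, 12.0, 15 and 14.3 CPM in the SLC30A10 control and 9.12, 9.33, 11.1 and 10.0 CPM in the second control set (log2 0.50 ± 0.09, adjusted p = 7.74e-05). Knockout libraries lay near their own controls, at 13.0 to 15.5 CPM for the SLC30A10 knockout and 8.84 to 9.97 CPM for the second. TRMU (0.28 ± 0.08) and MTO1 (0.19 ± 0.06) were also higher, and TRMT5 (0.01 ± 0.04) and CDK5RAP1 (0.10 ± 0.05) did not pass. The table holds a second entry for MRM1, and with both entries added the log2 difference was 0.54.

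Of the genes for the tRNA-cutting enzymes and their subunits, TRMT10C and ELAC2 were higher in the SLC30A10 control and the other 2 did not pass. TRMT10C (chr3:101561868-101566446) was at 57.8, 61.7, 68.0 and 55.2 CPM in the SLC30A10 control and 40.2, 42.4, 44.9 and 46.5 CPM in the second control set. The SLC30A10 knockout had 54.5 to 60.3 CPM and the second knockout 37.9 to 42.1 CPM, so that the 2 experiments did not overlap, and the log2 difference between controls was 0.48 ± 0.06 (edgeR adjusted p = 1.13e-06). ELAC2 was at 169 ± 9.07 against 146 ± 8.64 CPM (log2 0.21 ± 0.05, adjusted p = 5.89e-04). HSD17B10 was at 78.6 ± 6.83 against 76.4 ± 3.30 CPM and KIAA0391 at 66.1 ± 2.63 against 65.7 ± 1.41 CPM, neither past the threshold. The RNase P subunits thus had 1 gene higher in the SLC30A10 control and 2 that did not pass.

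All 4 decay genes were higher in the SLC30A10 control, and their groups did not overlap, beside 18.5% of all tested genes that passed and were higher and 17.4% that were higher without overlap. PNPT1 was at 136, 131, 135 and 124 CPM in the SLC30A10 control and 103, 98.1, 109 and 109 CPM in the second control set (log2 0.33 ± 0.05, edgeR adjusted p = 7.95e-06). SUPV3L1 was at 65.5 ± 3.86 against 56.9 ± 2.41 CPM (0.20 ± 0.05) and PDE12 at 57.7 ± 4.82 against 49.1 ± 2.47 CPM (0.23 ± 0.06). REXO2 was at 45.2 to 46.0 CPM in the SLC30A10 control and 36.2 to 40.0 CPM in the second control set (0.26 ± 0.05, adjusted p = 2.21e-04). For REXO2 the SLC30A10 control stood apart from all 3 other groups, since the SLC30A10 knockout, at 36.1 to 39.0 CPM, lay within the range of the second experiment, at 36.03 to 40.96 CPM over both groups. REXO2, MTO1 and PUS1 passed both here and in the SLC30A10 knockout with opposite signs, as 16.8% of all tested genes did, no gene of the 38 passed in both with the same sign, beside 3.29%, and the comparisons share the SLC30A10 control libraries.

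In the transcription group, TFB2M was at 31.2 ± 2.37 against 25.2 ± 1.92 CPM (log2 0.31 ± 0.07, edgeR adjusted p = 7.64e-04) and POLRMT at 84.7 ± 2.64 against 76.1 ± 4.44 CPM (0.15 ± 0.05, 0.0129). TFAM (0.06 ± 0.05) and TEFM (0.17 ± 0.07) did not pass. C10orf2, the replication helicase, was at 55.1, 62.8, 69.6 and 56.9 CPM in the SLC30A10 control and 42.8, 42.7, 51.3 and 50.2 CPM in the second control set, without overlap (log2 0.39 ± 0.07, adjusted p = 2.17e-04). POLG (0.04 ± 0.04), POLG2 (0.04 ± 0.07) and SSBP1 (0.10 ± 0.08) did not pass. SSBP1 has a second entry in the table that holds the larger part of its counts, and with both added its log2 difference was 0.15 ± 0.04 (adjusted p = 0.00551).

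SLIRP (0.21 ± 0.07) and MTPAP (0.15 ± 0.05) were higher in the SLC30A10 control in log2 terms, while LRPPRC was at 396 ± 5.73 against 402 ± 13.3 CPM and did not pass. Of the granule genes, DDX28 (0.31 ± 0.08) and TRUB2 (0.19 ± 0.06) were higher and RPUSD3 was lower, at 36.4, 42.2, 37.2 and 41.8 CPM in the SLC30A10 control and 46.1, 46.4, 42.7 and 41.0 CPM in the second control set (log2 -0.16 ± 0.06, edgeR adjusted p = 0.0366). RPUSD3 was the 1 gene of the 38 lower in the SLC30A10 control, and its groups overlapped. Over the 8 fits that each left out 1 library, RPUSD3 lost its call in 4 and MTPAP in 3. RPUSD3 also failed with library totals, DESeq2 or only the libraries compared. GRSF1 (0.09 ± 0.04), DHX30 (0.06 ± 0.04), RPUSD4 (0.11 ± 0.05), NGRN (0.02 ± 0.05) and WBSCR16 (0.04 ± 0.05) did not pass. None of the 5 tested pentatricopeptide and ribosome assembly genes passed, and PTCD2 had the highest log2 difference of them, 0.12 ± 0.06. Without library 3 of the SLC30A10 control, 14 genes passed, all of them higher, and SLIRP, TRUB2, MTPAP and RPUSD3 were lost. The share of all tested genes that passed in that fit is not given here, so the 14 cannot be set against it.

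**Figure D3:**
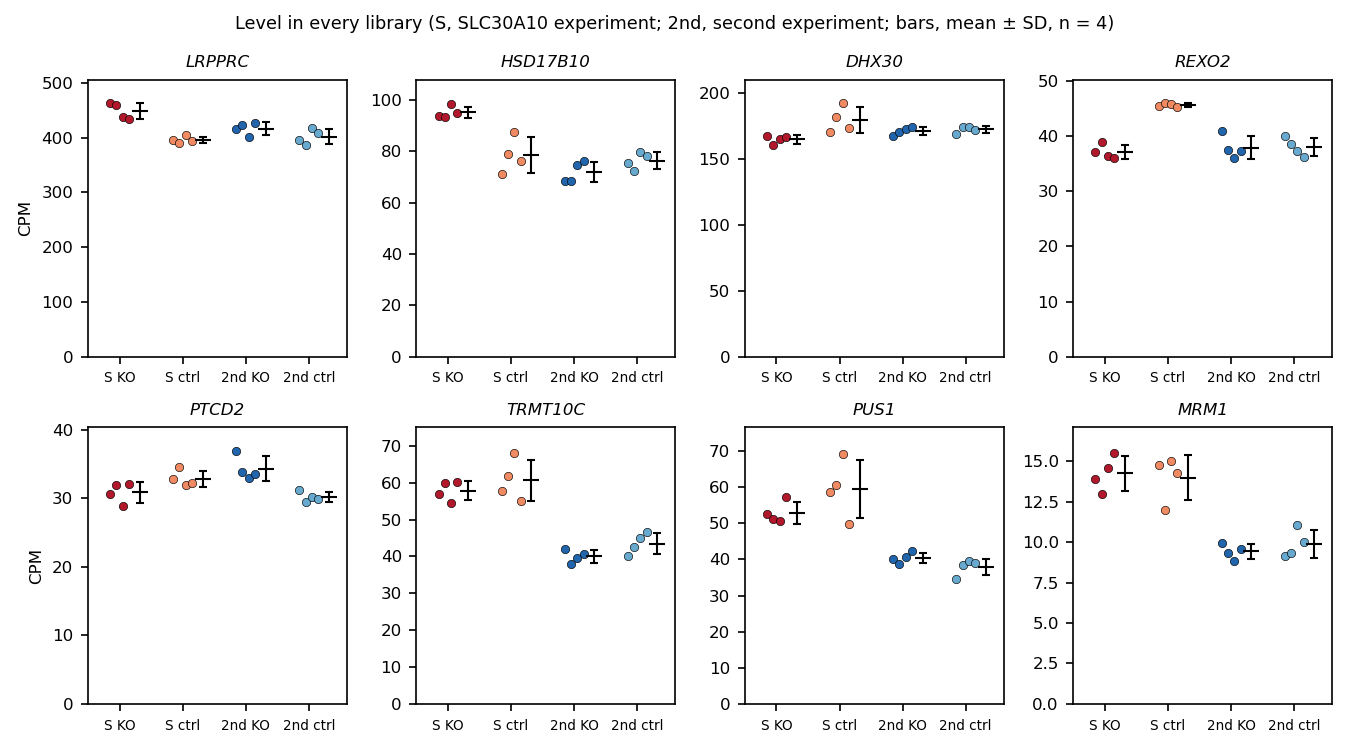
Level in CPM (vertical axes, from 0) of LRPPRC, HSD17B10, DHX30, REXO2, PTCD2, TRMT10C, PUS1 and MRM1 in each library of the SLC30A10 knockout (S KO), its control (S ctrl), the second knockout (2nd KO) and the second control set (2nd ctrl), with points for libraries and bars for mean ± SD, n = 4. TRMT10C, PUS1 and MRM1 separate the SLC30A10 knockout and its control from the second knockout and its control. REXO2 is highest in the 4 libraries of the SLC30A10 control.

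Across all 16 libraries, 8 of the 38 genes had every library of the SLC30A10 experiment above every library of the second experiment (21.1%, beside 5.21% of all tested genes). They were PNPT1, ELAC2, TRMT10C, DDX28, PDE12, MRM1, PUS1 and C10orf2. No gene of the 38 had the opposite order, beside 5.17% of all tested genes. For PDE12 the ranges were close, 53.97 to 64.4 CPM in the SLC30A10 experiment and 42.9 to 52.6 CPM in the second, and for PUS1 they were 49.7 to 69.2 and 34.7 to 42.3 CPM. The summed level of the 38 genes was 3120.5 to 3384.5 CPM in the 4 SLC30A10 control libraries, with library 3 the highest and the others at 3166.7 CPM or below, and 2922 to 2995 CPM in the second control set. Of the genes with promoter sequence, 14 were higher in the SLC30A10 control, and the ETS letters were found in 5 of them (35.7%) and the NRF1 letters in 1 (7.14%), beside 19.4% and 13.9% of the 36. TRMT10C, PDE12 and POLRMT, whose promoters are printed above, are among the 14, and TFAM is not.

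Neighbouring genes were examined for the genes with the widest differences. In the control comparison PUS1 (chr12:131929276-131945896) had a log2 difference of 0.65 beside a median of 0.10 over its 20 tested neighbours, and none of these differed as far in the same direction. For MRM1 (chr17:36601583-36634698) the neighbours had a median of -0.05 and for C10orf2 (chr10:100987543-100994403) -0.17, again with none as far. TRMT10C and PNPT1 each had 2 of 20 neighbours as far, with medians of -0.06 and -0.07. For HSD17B10 the neighbours moved with the gene in the SLC30A10 knockout, as given above. For the other called genes of that comparison the neighbour medians lay between -0.12 and 0.03. From 3 (LRPPRC and REXO2) to 7 (DHX30 and MTO1) of 20 neighbours were at least as far in the same direction. Gene order came from RefSeq, which placed 90.8% of the tested genes.

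**Figure D4:**
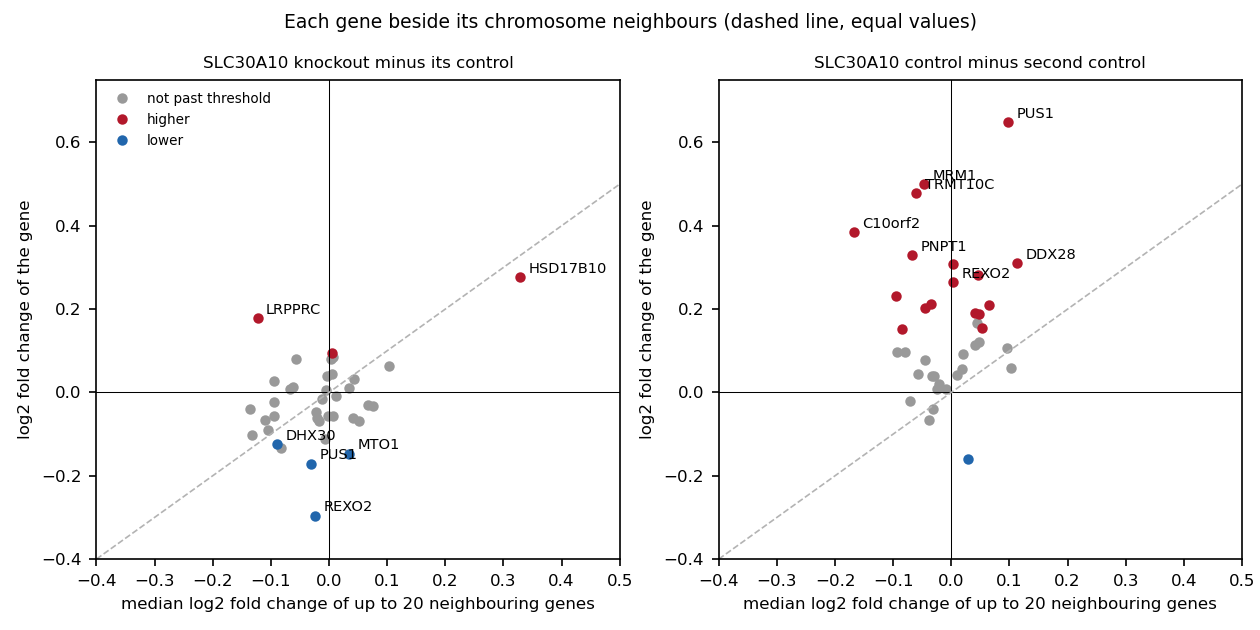
Log2 fold change of each of the 38 genes (vertical axes) against the median log2 fold change of up to 10 tested genes on each side of it (horizontal axes), for the SLC30A10 knockout against its control (left) and the SLC30A10 control against the second control set (right), with red and blue for genes past an adjusted p of 0.05 and a dashed line where both values are equal. HSD17B10 lies near the line at 0.28 against 0.33, and PUS1 lies far above it at 0.65 against 0.10.

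Other genes of the pathway were counted from 4 further lists. Of 22 other genes for mitochondrial RNA modification, 3 rose and 2 fell in the SLC30A10 knockout, so that 22.7% passed beside 41.4% of all tested genes (21.2% higher and 20.2% lower). TRMT2B, a tRNA methyltransferase, rose from 28.9 ± 1.10 to 39.6 ± 1.27 CPM (log2 0.45 ± 0.06, edgeR adjusted p = 3.17e-07). It lies on the X chromosome, where the median log2 change was 0.36, and its 20 neighbours had a median of 0.34, with 7 at least as far. METTL8 fell by 0.30 ± 0.06 and NSUN2 by 0.17 ± 0.05 on the log2 scale, both of them RNA methyltransferases. In the second knockout 3 of the 22 rose and none fell, so that 13.6% passed beside 13.7% of all tested genes (6.67% higher and 7.03% lower). GTPBP3, which acts with MTO1 on the same wobble uridine, was at 95.8, 96.1, 113 and 97.8 CPM in the second knockout and 43.9, 42.1, 49.4 and 48.6 CPM in its control. These groups lay far apart, with a log2 change of 1.13 ± 0.06 (edgeR adjusted p = 3.08e-14). The 20 tested neighbours of GTPBP3 on chromosome 19 had a median log2 change of 0.89 in this comparison, with 3 at least as far, beside 0.01 over the 986 tested genes of that chromosome. The part of this regional shift in the rise of GTPBP3 was not tested. MTO1 was at 39.2 ± 2.32 and 39.4 ± 2.03 CPM. THG1L, which adds a base to the 5′ end of tRNAs, rose by 0.36 ± 0.07 and METTL8 by 0.21 ± 0.06. Between the controls 11 of the 22 were higher in the SLC30A10 control (50% of the list, beside 18.5% of all tested genes) and 1 was lower (4.55% beside 20.8%).

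Of 15 other genes for mitochondrial transcription and DNA maintenance, 2 rose and 3 fell in the SLC30A10 knockout, so that 33.3% passed beside 41.4% of all tested genes. TOP1MT, the mitochondrial topoisomerase, rose by 0.26 ± 0.05 and the nuclease gene ENDOG by 0.35 ± 0.08, and MGME1, a DNA exonuclease, fell by 0.26 ± 0.04 on the log2 scale. In the second knockout TOP1MT rose by 0.19 ± 0.05 (edgeR adjusted p = 0.00425) and no other gene of the 15 passed, which is 6.67% beside 13.7% of all tested genes. Of 14 other genes for RNA decay and ribosome assembly, 1 rose and 4 fell in the SLC30A10 knockout, so that 35.7% passed beside 41.4% of all tested genes, and none passed in the second, beside 13.7%. C1QBP, a matrix protein that binds mitochondrial RNA, rose by 0.25 ± 0.04, and MTG2, a ribosome assembly GTPase, fell by 0.29 ± 0.07 and C6orf203 by 0.35 ± 0.08 on the log2 scale. The 20 neighbours of C6orf203 had a median log2 change of -0.24, with 7 at least as far. Between the controls 7 of the 15 (46.7%) and 9 of the 14 (64.3%) were higher in the SLC30A10 control, beside 18.5% of all tested genes, and none was lower, beside 20.8%.

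Of 10 regulators of mitochondrial gene expression, 9 were tested. In the SLC30A10 knockout 6 of them fell and none rose, which is 66.7% beside 20.2% of all tested genes that fell. NRF1 was at 27.5, 28.4, 29 and 30.1 CPM in the knockout libraries and 31.98, 32.8, 35.9 and 32.1 CPM in the control libraries, without overlap, and fell by 0.21 ± 0.06 on the log2 scale (edgeR adjusted p = 0.00864). GABPB1, the partner of GABPA, fell by 0.24 ± 0.07 and YY1 by 0.15 ± 0.04. The control library with NRF1 at 35.9 CPM was library 3, which was also high in many of the genes described above. Fits without that library are not given here for the further lists, so how far these counts depend on it is not shown. In the second knockout MYC rose by 0.43 ± 0.07 (edgeR adjusted p = 6.73e-05) and no other regulator passed, which is 11.1% beside 13.7% of all tested genes. Between the controls 4 were higher in the SLC30A10 control (44.4%, beside 18.5% of all tested genes) and 1 was lower (11.1% beside 20.8%), and the coactivator genes PPRC1 (0.60 ± 0.05) and PPARGC1B (0.58 ± 0.08) had the widest differences. The SLC30A10 knockout and the control comparison share the SLC30A10 control libraries, and the part of these regulators in the levels of the 38 genes was not tested.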

How the data were processed

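RNA was measured in 16 libraries of HAP1, grouped by the genotype and title in the labels into 4 groups of 4. The authors deposited whole-number counts per gene symbol. HISAT2, featureCounts, DESeq2 and the build hg38 are named in the submitters' processing notes. The annotation, the use of strand and the versions are not given in the sources used here, so where genes overlap their reads may be shared. The other knocked-out gene is not reported here, and the RNAs encoded in mitochondrial DNA were not analysed here. A second deposited table of normalized values was not used.

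The counts were analysed in R 4.3.3 with edgeR 4.0.16. Its expression filter, set to at least 10 counts and a total of at least 15, kept 15569 genes. TMM factors were used for scaling, the 16 libraries were fitted together with a mean per group, quasi-likelihood F tests were made for 4 contrasts, and p-values were adjusted over all tested genes by the Benjamini-Hochberg method with a threshold of 0.05. The SE is the log2 change divided by the square root of F. The common biological coefficient of variation was 0.0497. Replicate pairs differed by more than sampling noise, with a chi-square per degree of freedom of 1.63 to 6.69, so each library was counted once. With totals of 16058856 to 16648151, 3 counts corresponded to 0.180 to 0.187 CPM, a floor that covers counting error only, since no molecular identifiers are stated. Libraries with the same number in compared groups had deviations that correlated at -0.103 to 0.116, so the numbers were not treated as pairs.

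Alternatives were median-of-ratios factors, scaling by totals, DESeq2 1.42.0, no filter, a filter at a mean of 50 counts, a threshold of 0.01, a minimum fold of 1.5, a replicate block, fits of only the libraries compared, pooled controls and each library left out. Adding the second entries of MRM1 and SSBP1 was chosen after seeing the data. The genes and lists were chosen with earlier results of these data known. Each tested gene could be named, genes past a threshold were given in full, and up to 3 genes with the smallest adjusted p were named per further list and knockout, with PPRC1, PPARGC1B and the neighbours' and markers' values besides. Gene positions, promoters and neighbours are from RefSeq (GRCh38.p14) and exon lengths from GENCODE release 29. The fitting was tested on simulated data.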

Additional observations from a re-analysis of the deposited data

Results flagged for a closer look

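The difference between the knockout effects passed the edgeR test for 4 of the genes. In log2 terms, as the SLC30A10 effect minus the second, it was 0.36 for HSD17B10, -0.29 for REXO2, -0.28 for PTCD2 and -0.26 for PUS1. For HSD17B10, on the X chromosome, the median of the same difference over the 496 tested genes of that chromosome was 0.37.

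In 10 of 152 gene and group sets of 4 libraries, 1 library stood apart from the other 3, where chance gives about 7.6. The measure is the gap to the nearest library divided by the range of the group, with a limit of 0.829. Library 1 of the second knockout was high for SLIRP (0.881), GRSF1 (0.853) and TRUB2 (0.858), and it was the highest of its group in 21 of the 38 genes. Library 3 of the SLC30A10 control was high for NGRN (0.893). In the SLC30A10 knockout, library 1 was high for SLIRP (0.885), library 2 was low for POLRMT (0.838) and high for NOA1 (0.935), and library 3 was low for TEFM (0.955). In the second control set, library 2 was high for POLRMT (0.878) and library 4 was low for DDX28 (0.849).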

How the results depend on the processing

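The number of genes past the threshold was 7 in the SLC30A10 knockout, 1 in the second knockout, 4 for their difference and 18 between the controls. At an adjusted p under 0.01 these became 3 and 0 in the knockouts, and with a minimum fold of 1.5 they became 0, 0, 0 and 1. With no filter on low counts the second knockout had 0. Against pooled controls, a comparison that the difference between the control sets enters, the knockouts had 12 and 12, and PUS1 in the SLC30A10 knockout turned to 0.15. With the replicate number as a block the second knockout had 2 genes (PTCD2 and NGRN), the SLC30A10 knockout 6, the difference 3 and the controls 18, and the numbers did not pair the libraries. Leaving out 1 library at a time gave 4 to 6, 0 to 1, 3 to 6 and 14 to 21. Shares of all tested genes are not given here for the threshold of 0.01, no filter, the block or the fits without a library. Those counts therefore cannot be set against all genes. The SLC30A10 log2 ratio of -0.18 ran from -0.519 to 0.0685, and the value of 0.0685 came without library 4 of its knockout (exact permutation p = 0.914), with an exact p of 0.75 under the block. LRPPRC, HSD17B10 and REXO2 kept their direction and passed in the SLC30A10 knockout under every alternative but the minimum fold of 1.5. PTCD3 failed with median-of-ratios factors, library totals or no filter, MTO1 with no filter or pooled controls, and PUS1 with DESeq2, a mean count of 50, the block or only the libraries compared. The causes were not tested. SEs of 0.04 to 0.09 on the log2 scale between pairs of groups limit what could be detected. For the difference of the knockout effects they were 0.05 to 0.13. The smallest knockout change that passed was 0.09 (PTCD3).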
